A study of Mus musculus with 57 samples.

Results

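Livers of 22 of the 57 mice of the series were compared, those given α-naphthyl isothiocyanate (ANIT, 4 mice) or 4,4'-methylene dianiline (MDA, 7 mice) against those given acetaminophen (APAP, 6 mice) or thioacetamide (TAA, 5 mice). The mice were chosen by compound alone, and all 22 were dosed by gavage. All were male wild-type C57BL/6JJcl mice, 6 weeks old and acclimatised for 1 week. They were fasted for 12 h before the single dosing. Perfused liver was taken 24 h after it, and RNA came from part of the left lateral lobe. A further 13 mice of the same strain, sex and age received 0.5% methylcellulose by gavage and serve here as the vehicle group. The labels name saline and corn oil as further vehicles without saying which compound was given in which, and the gavage controls used here all received methylcellulose. Compound and vehicle therefore cannot be told apart for a compound given in saline or corn oil. Doses in mg per kg are not given in the sources used here. Whether doses were matched in effect is therefore unknown, and the comparison is of 4 treatments at 1 time point.

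As background, ANIT and MDA are classical bile duct toxicants. ANIT is conjugated to glutathione in the hepatocyte and carried into bile, where it injures the cholangiocytes, the epithelial cells that line the ducts. Metabolites of MDA likewise reach the ducts through bile. APAP and TAA are instead activated inside hepatocytes around the central vein, mainly by CYP2E1, and kill those cells. In the healthy liver hepatocytes take up bile acids from blood by the transporter NTCP (gene Slc10a1), conjugate them through BAAT and export them into bile through BSEP (Abcb11). Stellate cells respond to hepatocyte death by turning on smooth muscle actin (Acta2) and matrix genes.

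The 22 libraries held 16913744 to 30463927 estimated counts, of which 9.00% to 24.4% were of mitochondrially encoded genes. Levels below are CPM, estimated counts relative to library size after scaling by the trimmed mean of M values (TMM). The labels number the mice as different animals, so p-values measure the spread between mice. APAP replicate 1 stood apart, with a mean correlation of 0.854 with the other 5 APAP mice over 12147 genes, against 0.900 or more for each other mouse of the 22 within its own group. The libraries labelled ANIT replicate 1 and MDA replicate 1 went against their labels. The first had a mean correlation of 0.946 with the MDA mice and 0.929 with the other ANIT mice, and the second of 0.943 with the ANIT mice and 0.925 with the other MDA mice. Over 419 genes that separated the other 3 ANIT from the other 6 MDA mice by a log2 difference over 1, the library labelled ANIT replicate 1 was nearer the MDA mean in 93.6%. The library labelled MDA replicate 1 was nearer the ANIT mean in 74.9% of them. Gstm3, a glutathione transferase, was at 2800 CPM in the first and at 12.9 to 78 in the other ANIT mice, and at 34.2 CPM in the second and 749 to 3331 in the other MDA mice. Whether these libraries were exchanged was not tested, and they are kept below under their labels, with results also given without both. Of the other 20 mice, APAP replicates 1, 2 and 6 also had a higher mean correlation with another compound than with their own. APAP replicates 2, 4 and 6 had mean correlations of 0.9229, 0.9191 and 0.9325 with the vehicle mice. Those with the other APAP mice were lower, at 0.9094, 0.9145 and 0.9143. APAP replicates 8 and 11 stood apart from the other APAP mice in genes of the pericentral hepatocyte: Cyp2e1 was at 20 and 25.5 CPM there, and at 353 to 2481 CPM in the other 4. All 4 ANIT mice carry numbers from 1 to 4, as do 4 MDA, 3 APAP and 2 TAA mice. What the numbers stand for is not stated, and the range of numbers was used as a covariate in an alternative fit. In bulk tissue, fewer cells of a type and less RNA per cell cannot be told apart.

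The first question was how many genes separated both bile duct toxicants from both hepatocyte toxicants in 1 direction. A gene is called concordant below where ANIT against APAP, ANIT against TAA, MDA against APAP and MDA against TAA all passed an adjusted p under 0.05 with the same sign (edgeR quasi-likelihood test in 1 fit of the 22 mice). Of 15280 genes tested, 276 (1.81%) were concordantly higher with ANIT and MDA and 436 (2.85%) were concordantly higher with APAP and TAA. The size of a difference is given as the log2 mean of ANIT and MDA minus that of APAP and TAA, with its standard error (SE). Its median was 1.13 over the 276 genes, -1.87 over the 436 genes and -0.04 over all genes tested. An absolute log2 difference of at least 1 in each of the 4 comparisons was found in 114 (0.746%) of the genes higher with ANIT and MDA. For the genes higher with APAP and TAA the number was 347 (2.27%). In 99 (0.648%) and 106 (0.694%) concordant genes, all 11 mice of one pair of compounds lay beyond all 11 of the other. Over all genes tested, called or not, 115 (0.753%) and 113 (0.74%) were so separated. The filter on low counts asks for 0.441 CPM or more in 4 mice, which a gene can reach through 1 pair of compounds alone. Of 139 concordant genes named or listed here, 15 reached it only through APAP and TAA, where they are high, so their calls are a description and no p or fold is given for them. They were Cd79a, Cd79b, Cx3cl1, Dusp2, Eda2r, Fhl2, H2-DMb2, Hkdc1, Hsd3b5, Krt5, Lox, Mmp13, Mmp3, Spred3 and Tnc. Medians of the gene lists below include those of them that are list members. The other concordant genes were not looked at for this. The 436 genes, the 347 and the median of -1.87 may thus include more genes of this kind. At a mean of 5 CPM or more, 258 genes were higher with APAP and TAA, 182 of them among the 436.

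Single comparisons gave 1994 genes for ANIT against APAP (13% of those tested), with 856 higher (5.6%) and 1138 lower (7.45%) with ANIT. ANIT against TAA gave 3280 (21.5%), with 1517 higher (9.93%) and 1763 lower (11.5%) with ANIT. MDA against APAP gave 1980 (13%), with 828 higher (5.42%) and 1152 lower (7.54%) with MDA. MDA against TAA gave 3685 (24.1%), with 1700 higher (11.1%) and 1985 lower (13%) with MDA. Under the further demand of an absolute log2 difference of 1 or more, these 4 numbers were 1349 (8.83%), 2265 (14.8%), 1292 (8.46%) and 2298 (15%). Within the pairs, APAP and TAA differed in 917 genes (6%), 421 higher (2.76%) and 496 lower (3.25%) with APAP, and in 567 (3.71%) under the same further demand. Of the 917 genes, 49 were among the 712 concordant genes (4.66% of those tested). ANIT against MDA gave 0 calls with edgeR (0%), with 1247 genes at an unadjusted p under 0.05. DESeq2 called 164 genes in that comparison and limma 0. Further, edgeR without ANIT replicate 1 called 44, and edgeR without both ANIT replicate 1 and MDA replicate 1 called 331. The absence of calls between ANIT and MDA at 4 against 7 mice does not show that the compounds act alike. APAP against TAA gave 408 (without TAA replicate 6) to 2301 genes (without APAP replicate 1) when single mice were left out, with 440 without TAA replicate 8, 573 without TAA replicate 7, 500 without APAP replicate 6 and 514 without APAP replicate 4.

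**Figure D1:**
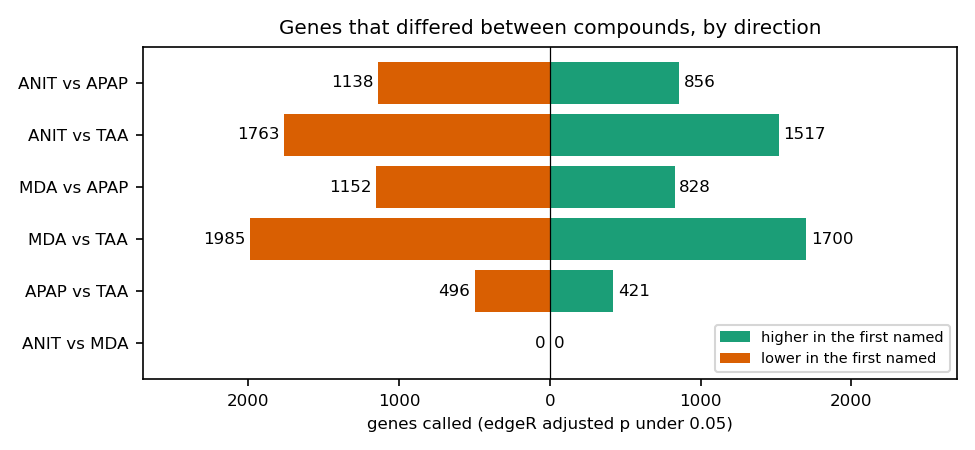
Number of genes called in each comparison of 2 compounds (edgeR adjusted p under 0.05, x axis), to the right where the first named compound was higher and to the left where it was lower. The 4 comparisons across the pairs have 1980 to 3685 calls, APAP against TAA has 917 and ANIT against MDA has 0.

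The counts changed with the scaling, with mice left out and with the range of mouse numbers as a covariate. With library totals as scaling the concordant genes numbered 96 and 532, and with totals less mitochondrial genes 116 and 545. Without the libraries labelled ANIT replicate 1 and MDA replicate 1 the concordant genes numbered 174 and 305, of which 171 and 286 were among the original genes. Without APAP replicate 1 the concordant genes numbered 351 and 485, without APAP replicates 8 and 11 they numbered 172 and 258, and without all 3 of these mice 226 and 249. With the range of mouse numbers as a covariate they numbered 170 and 296. All ANIT mice are in the low range, so this covariate and ANIT cannot be fully told apart. ANIT against APAP and against TAA then gave 1119 and 2071 genes in place of 1994 and 3280. MDA against APAP and against TAA gave 1916 and 3563 in place of 1980 and 3685. Whether the lower counts come from the mouse numbers was not tested. Leaving out ANIT replicate 2 gave 187 and 245, of which 185 and 241 were among the original genes. Of the 105 genes of the naming rule, 17 lost their call without ANIT replicate 1 and MDA replicate 1. Of the gene groups below, the transporters of bile acids then had 3 concordant members in place of 6, bile acid synthesis 3 in place of 4, pericentral genes 0 in place of 1, proteasome subunits 1 in place of 3, YAP targets 2 in place of 5 and cytosolic heat shock genes 0 in place of 2. With both mice left out, stellate and fibroblast markers had 5 in place of 6, chemokines 2 in place of 3, endothelial and monocyte markers 1 each in place of 2, immediate early genes 0 in place of 1 and P450 genes 0 in place of 1 higher with APAP and TAA. B cell markers had 3 as before, although Cd79b lost its call. With 2 compounds on either side, an exact test over compounds cannot give a two-sided p below 0.333. The counts therefore speak of these 4 compounds, not of all bile duct or hepatocyte toxicants.

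The names of the toxicant classes come from background knowledge, so markers of the injured cells were looked at first. Of 13 cholangiocyte markers tested, 0 were concordant in either direction, and their median difference was -0.71, against -0.04 over all genes. The other 2 of the 15 listed were too low to test. Krt19, a keratin of bile duct cells, was at 0.77, 1.07, 1.98 and 2.54 CPM with ANIT, 1.04 to 3.77 (median 1.36) with MDA, 1.15 to 2.19 (median 1.46) with APAP and 0.939, 1.63, 1.92, 2.94 and 4.15 with TAA. The ranges of both pairs overlapped, and both overlapped that of the vehicle mice, at 1.28 to 5.26 (median 2.27). Krt7, another duct keratin, was at 0.137, 0.293, 0.356 and 0.359 CPM with ANIT and 0.741 to 1.54 (median 1.16) with MDA. All ANIT mice were below all MDA mice (adjusted p = 0.381), and the MDA range overlapped that of TAA (0.872 to 2.23 CPM) and of vehicle (0.233 to 1.95 CPM). Sox9, a transcription factor of duct and progenitor cells, was at 1.03 to 9.14 CPM with ANIT, 1.22 to 6.33 with MDA, 1.78 to 35.6 with APAP and 8.18 to 17.7 with TAA, against 0.827 to 2.35 in vehicle mice. The highest Sox9 value was that of APAP replicate 1. The summed level of all 15 cholangiocyte markers was 40.3 to 67.6 CPM with ANIT, 54.9 to 94.8 CPM with MDA, 88.1 to 236 CPM with APAP, 95.1 to 136 CPM with TAA and 52.7 to 142 CPM with vehicle. The members at the highest level were Spp1 and Slc4a2, and Krt19 and Krt7 made up little of the sum. How far the sum reflects cholangiocyte number was not tested.

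Hepatocyte markers held no concordant gene among 12 tested (median difference 0.11). Albumin (Alb) was at 32750 to 76250 CPM with ANIT, 32600 to 83130 with MDA, 39580 to 52010 with APAP and 39970 to 61800 with TAA, and the groups overlapped. Cyp2e1, the enzyme that activates APAP and TAA, was at 1234, 3322, 3640 and 4398 CPM with ANIT, 802 to 4406 (median 1234) with MDA, 20 to 2481 (median 431) with APAP and 1043, 1587, 1736, 1899 and 3907 with TAA. Its difference between the pairs was 0.89 ± 0.59 (adjusted p = 0.264), and 9 of the 11 ANIT and MDA mice lay below the highest APAP or TAA mouse. Without APAP replicate 1, and without replicates 1, 8 and 11, 1 hepatocyte marker was concordantly higher with ANIT and MDA.

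The 10 genes named for the largest differences in favour of ANIT and MDA were Cyp2b10, Cyp2c29, Vwa3b, Cyp2a5, Etnppl, Fmo2, Slco1a4, Abhd15, Cth and Akr1d1. These and the 10 named below for the opposite direction were picked among genes whose pairs do not overlap. For these 20 genes the separation of the mice follows from that choice and is a description. The first gene named, ranked by the smallest of its 4 differences, was Cyp2b10, a cytochrome P450 and classical target of the nuclear receptor CAR. It was at 34.6, 37.9, 95.2 and 361 CPM with ANIT and 84.4 to 512 (median 305) with MDA, against 2.07 to 8.28 (median 5.16) with APAP, 3.14, 4.05, 7.02, 9.79 and 10.7 with TAA and 17.7 to 38.5 (median 30.4) with vehicle. Every ANIT and MDA mouse lay above every APAP and TAA mouse, with ANIT replicate 1 the highest of the ANIT group. The difference was 5.01 ± 0.45 (log2 ± SE), and the smallest of the 4 differences was 4.26 (largest adjusted p = 0.00019). Cyp2c29, another P450 that CAR is known to induce, was at 822, 839.8, 918 and 2520 CPM with ANIT and 1341 to 3449 (median 1400) with MDA. It was at 8.43, 9.23, 103, 146, 175 and 279 CPM with APAP and 86.9, 102, 132, 145 and 174 with TAA, and at 724 to 1302 (median 1028) with vehicle. The pairs did not overlap (difference 3.63 ± 0.49, largest adjusted p = 0.00318), and the lowest APAP values were those of replicates 8 and 11. Against vehicle Cyp2c29 fell with APAP (-3.05 ± 0.55, adjusted p = 0.000331) and TAA (-2.97 ± 0.19, adjusted p = 1.48e-10) and rose with MDA (0.85 ± 0.17, adjusted p = 0.00052). With ANIT it was 0.33 ± 0.23 from vehicle (adjusted p = 0.316), and -0.25 ± 0.15 without replicate 1 (adjusted p = 0.235).

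Of 20 drug-metabolising P450 genes tested, 3 were concordantly higher with ANIT and MDA (Cyp2b10, Cyp2c29 and Cyp3a13) and 1 with APAP and TAA (Cyp2a4), and the median difference was 1.79. Without APAP replicates 8 and 11 the first number was 6, although Cyp3a13 then lost its call. Cyp3a13 had means of 152 ± 50 (SD) CPM with ANIT and 89.1 ± 26.7 with MDA, against 44 ± 10.4 with APAP and 38.7 ± 12.2 with TAA (n = 4, 7, 6 and 5). Cyp3a11, the main hepatic CYP3A enzyme of the mouse, did not pass all 4 comparisons, with means of 2190 ± 3049, 4099 ± 1956, 432 ± 319.8 and 614 ± 221 CPM in the same order. Cyp2a5, a coumarin hydroxylase, was at 1370, 2062, 2234 and 2313 CPM with ANIT and 1100 to 4886 (median 1924) with MDA, against 4.82, 8.91, 121, 322, 658 and 766 with APAP and 144, 164, 196, 358 and 409 with TAA. The pairs did not overlap, as the choice required, yet the call was lost in 20 of the alternative analyses, among them the omission of any 1 ANIT mouse (largest adjusted p = 0.0428). Its near-identical neighbour Cyp2a4 went the other way, with means of 11.7 ± 6.34 and 11.4 ± 5.92 CPM against 97.9 ± 104 and 153 ± 110.1. The Cyp2a4 call was lost in 13 alternatives, among them the omission of any 1 ANIT mouse or of APAP replicate 2 or 6. Reads of this gene pair may have been split between the copies, so both values are uncertain.

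Fmo2, a flavin-containing monooxygenase and another of the 10, was at 13.6, 15.8, 19.8 and 19.8 CPM with ANIT and 7.94 to 41.8 (median 26.5) with MDA, against 0.846 to 3.07 (median 1.95) with APAP and 2.08, 2.22, 2.88, 3.34 and 7.45 with TAA. The pairs were apart, by a narrow gap between the lowest MDA and the highest TAA mouse (difference 2.98 ± 0.30, largest adjusted p = 0.00126). Against vehicle, at 1.1 to 3.08 (median 1.65) CPM, Fmo2 rose with ANIT by 3.20 ± 0.23 and with MDA by 3.75 ± 0.27 (log2, adjusted p = 7.72e-08 and 1.69e-09). Cth, which makes cysteine from cystathionine, was at 205, 251, 394 and 566 CPM with ANIT and 194 to 699.6 (median 492) with MDA. It was at 16.9, 21.4, 55.8, 75.1, 76.5 and 90.3 CPM with APAP and 68.6, 71.4, 72.3, 92.4 and 138 with TAA, again without overlap between the pairs (difference 2.55 ± 0.30, largest adjusted p = 0.00392). Against vehicle Cth fell with APAP (-2.07 ± 0.31, adjusted p = 4.38e-05) and TAA (-1.41 ± 0.21, adjusted p = 1.11e-05). Vwa3b reached means of 2.96 ± 1.2 and 2.58 ± 1.33 CPM with ANIT and MDA against 0.338 ± 0.183 and 0.345 ± 0.201 with APAP and TAA (difference 3.01 ± 0.33, largest adjusted p = 0.000312). Abhd15 had means of 34 ± 10.9, 37.1 ± 12.9, 7.27 ± 2.64 and 2.81 ± 0.598 CPM in the same order (difference 2.96 ± 0.21, largest adjusted p = 0.000112).

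**Figure D2:**
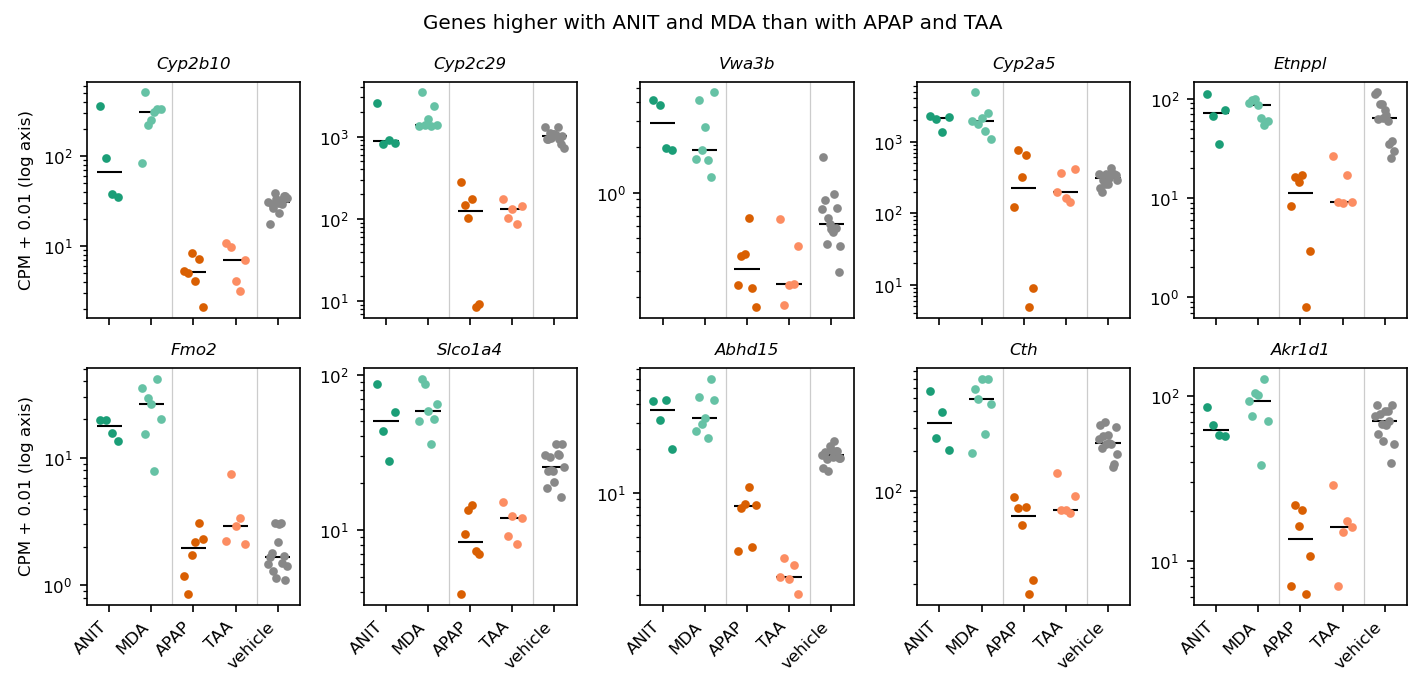
CPM plus 0.01 (log axis) of the 10 genes named for the largest differences in favour of ANIT and MDA. Each point is 1 mouse (ANIT 4, MDA 7, APAP 6, TAA 5, vehicle 13) and bars are group medians; in every panel all 11 ANIT and MDA mice lie above all 11 APAP and TAA mice, which the choice of the genes required.

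Bile acid handling was next, since bile duct toxicants are known to disturb it. Of 18 transporters of bile acids and organic anions tested, 6 were concordantly higher with ANIT and MDA and 0 with APAP and TAA (median difference 0.94). Slc10a1, the sodium-dependent bile acid uptake carrier, was at 459.9, 489, 699 and 932 CPM with ANIT and 174 to 844 (median 378) with MDA, against 58.8 to 154 (median 113) with APAP, 93.7, 97.3, 105, 108 and 266 with TAA and 292 to 736 (median 448) with vehicle. The pairs overlapped only through TAA replicate 1, which lay above 1 MDA mouse, replicate 7 (difference 2.18 ± 0.27, largest adjusted p = 0.00135). Against vehicle Slc10a1 fell with APAP (-2.07 ± 0.23, adjusted p = 1.95e-06) and TAA (-1.75 ± 0.26, adjusted p = 1.43e-05). It was 0.48 ± 0.20 with ANIT (adjusted p = 0.0857) and 0.02 ± 0.22 with MDA (adjusted p = 0.966), neither of which passed.

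Slco1a4, a sinusoidal organic anion carrier, was at 27.8, 43.6, 57.1 and 86.4 CPM with ANIT and 36 to 94.1 (median 58.3) with MDA, against 3.88 to 14.4 (median 8.41) with APAP and 8.06, 9.09, 11.9, 12.2 and 15.2 with TAA. The pairs did not overlap (difference 2.50 ± 0.24, largest adjusted p = 0.000237). Abcb11, the canalicular bile salt export pump, was at 26, 51.9, 114 and 270.1 CPM with ANIT, 40.8 to 253 (median 171) with MDA, 5.01 to 44.9 (median 28.2) with APAP and 14.1, 20.1, 22, 28.5 and 40.7 with TAA. ANIT replicate 4 and MDA replicate 1 lay within the APAP and TAA ranges (difference 2.38 ± 0.43, largest adjusted p = 0.0278). The Abcb11 call was lost in 15 alternatives, among them library totals as scaling, the number range as a covariate and the omission of ANIT replicate 1, ANIT replicate 3 or APAP replicate 11. The other members called were Slco2b1 (difference 1.17 ± 0.18), Abcc2, a canalicular conjugate pump (0.76 ± 0.16), and Abcg2 (0.88 ± 0.15). The Slco2b1 call was lost in 13 alternatives, among them library totals as scaling and the omission of ANIT replicate 1 or 4. Against vehicle Slco2b1 was -0.44 with ANIT (adjusted p = 0.108) and -0.30 with MDA (adjusted p = 0.0367). Abcb11 was 0.08 with ANIT (adjusted p = 0.894) and 0.52 with MDA (adjusted p = 0.0749) from vehicle. Slc51b, a subunit of the basolateral bile acid exporter, missed 1 of the 4 comparisons, ANIT against TAA (adjusted p = 0.0621). Its means were 26.4 ± 30.9 and 67.3 ± 37 CPM with ANIT and MDA against 2.7 ± 2 and 4.33 ± 3 with APAP and TAA and 2.25 ± 1.78 with vehicle. The number of transporters called was 2 when libraries were scaled by their totals alone, 3 with the number range as a covariate and 4 without APAP replicates 8 and 11.

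Of 15 genes of bile acid synthesis and its regulation, 4 were concordantly higher with ANIT and MDA and 0 with APAP and TAA (median difference 0.77). Akr1d1, the steroid 5β-reductase of the pathway, was at 57.2, 57.9, 67.4 and 86.6 CPM with ANIT and 38.1 to 128 (median 94.1) with MDA, against 6.3 to 21.9 (median 13.5) with APAP and 7.01, 15.1, 16.1, 17.5 and 28.8 with TAA, without overlap between the pairs. Its difference was 2.33 ± 0.26 (largest adjusted p = 0.00131), and the vehicle mice, at 39.2 to 88.4 (median 71) CPM, lay in the range of ANIT and MDA. Baat, which joins bile acids to taurine or glycine, was at 99.9, 131, 153 and 154 CPM with ANIT, 78 to 149.8 (median 108) with MDA, 51.9 to 71.4 (median 56.6) with APAP and 31.5, 33.8, 36.5, 41 and 47.1 with TAA. All ANIT and MDA mice were above all others of the 22 (difference 1.36 ± 0.12, largest adjusted p = 0.000508). Nr0b2, the repressor SHP that bile acids induce through FXR, was at 29.2, 159, 185 and 249 CPM with ANIT, 42 to 185 (median 160.1) with MDA, 4.34 to 78.3 (median 26.8) with APAP and 3.69, 4.2, 4.92, 5.68 and 9.86 with TAA. APAP overlapped ANIT and MDA here, while all TAA mice were below every mouse of those groups (difference 3.37 ± 0.46, largest adjusted p = 0.0323). The Nr0b2 call was lost in 15 alternatives, among them the omission of ANIT replicate 1, 2 or 3 or of APAP replicate 6, 8 or 11. Against vehicle Nr0b2 rose with ANIT (1.18 ± 0.35) and MDA (1.09 ± 0.24), with adjusted p = 0.0192 and 0.00136. Cyp7a1, the rate-limiting enzyme of bile acid synthesis, did not separate the pairs. It was at 0, 9.67, 13 and 45.1 CPM with ANIT, 0 to 64.6 (median 0.0741) with MDA, 0 to 17.7 (median 0.665) with APAP and 0.604, 1.98, 4.43, 7.95 and 25.5 with TAA, against 13.5 to 532 (median 79.6) with vehicle. The SE of its difference was larger than the difference (1.0 ± 1.34), which was -2.48 without ANIT replicate 1 and MDA replicate 1. Both under scaling by library total and with the number range as a covariate, 2 of the 15 genes were called.

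Hepatocyte zonation genes were examined because APAP and TAA injure the pericentral zone. Of 16 pericentral genes, 1 (Cyp2a5) was concordantly higher with ANIT and MDA and 0 with APAP and TAA, with a median difference of 0.85. That 1 call was lost in both of the alternative fits just named and without APAP replicate 1. Of 14 periportal genes, 4 were higher with ANIT and MDA and 0 with APAP and TAA, with a median of 0.90. Etnppl, an enzyme of phosphoethanolamine breakdown, was at 34.6, 66.2, 76.9 and 112 CPM with ANIT and 54.4 to 98.3 (median 86.3) with MDA, against 0.783, 2.94, 8.29, 14.4, 16.1 and 17 with APAP and 8.91, 9.06, 9.14, 17.2 and 26.7 with TAA. The pairs did not overlap (difference 2.67 ± 0.39, largest adjusted p = 0.00661), and APAP replicates 8 and 11 were again the lowest. Hal, which degrades histidine, had means of 251 ± 44.7 and 241 ± 52.4 CPM with ANIT and MDA against 90.1 ± 55.8 and 41 ± 17.8 with APAP and TAA (difference 2.01 ± 0.27, largest adjusted p = 0.0173). The Hal call was lost in 9 alternatives, among them library totals as scaling, the number range as a covariate and the omission of APAP replicates 8 and 11. Against vehicle Hal was 0.0997 with ANIT (adjusted p = 0.6285) and 0.045 with MDA (adjusted p = 0.8057), neither of which passed. The urea cycle gene Ass1 differed by 1.31 ± 0.23, a call lost in 7 alternatives, among them the single omission of TAA replicate 3, 6, 7 or 8. Against vehicle Ass1 fell with APAP (-1.73 ± 0.29, adjusted p = 0.000147) and TAA (-1.49 ± 0.28, adjusted p = 0.000184). Without APAP replicates 8 and 11 the periportal count was 2.

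Of all genes tested, 1.81% were concordantly higher with ANIT and MDA, and single members of other metabolic lists were among them. Such single calls do not describe a list. They were Acaca, 1 of 15 fatty acid synthesis genes (list median 0.66), Plin5, 1 of 14 lipid droplet genes (list median 0.13), and Lbp, 1 of 21 acute phase genes (list median 0.58). The 22 cholesterol genes tested had a median of 1.39. Acaca, the first enzyme of fatty acid synthesis, had means of 44.1 ± 3.45 and 36.8 ± 7.17 CPM with ANIT and MDA against 13.4 ± 4.29 and 11 ± 2.9 with APAP and TAA, with vehicle at 51.4 ± 18.2. Plin5, a coat protein of lipid droplets, had means of 65 ± 14.6, 90.6 ± 48.5, 22.8 ± 6.55 and 25.2 ± 8.9 CPM in the same order. Without APAP replicate 1, 3 fatty acid synthesis and 2 lipid droplet genes were called, and without replicates 8 and 11 0 acute phase genes were. Fgf21, a hormone of the stressed liver, was at 26.6, 50.6, 91.3 and 240.4 CPM with ANIT and 4.97 to 87.3 (median 18.6) with MDA. It was at 3.1, 3.34, 3.35, 5.04, 5.71 and 6.55 CPM with APAP and 6.89, 8.71, 8.75, 9.31 and 10.2 with TAA, and at 0.166 to 3.06 (median 0.442) with vehicle. All ANIT mice were above all APAP and TAA mice, whereas the lowest MDA mouse was within their range (difference 3.08 ± 0.42, largest adjusted p = 0.0327). The Fgf21 call was lost in 12 alternatives, among them the omission of any 1 TAA mouse or of MDA replicate 7. Fgf21 was the 1 concordant gene of 17 in the ATF4 list, whose median was -0.04. Of 21 NRF2 targets, Ephx1 and Me1 were higher with ANIT and MDA and G6pdx with APAP and TAA (median 0.64). Against vehicle Me1 fell with MDA (-1.04, adjusted p = 0.00189) and was -0.60 with ANIT (adjusted p = 0.159). Nqo1 and Hmox1, textbook NRF2 targets, were not concordant, with differences of 0.40 ± 0.21 and -0.72 ± 0.38. Of 31 proteasome subunits, 3 were higher with ANIT and MDA (Psma1, Psmb3 and Psmd11, median 0.47), a number that was 6 without APAP replicate 1 and 1 with the number range as a covariate. The calls of Psma1 and Psmb3 were lost in 25 and 18 alternatives.

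The 10 genes named in favour of APAP and TAA were Plat, Selenbp2, Cd79a, Mmp3, Krt5, Dbn1, Fabp5, Angpt2, Loxl2 and Etv4. Plat, the tissue-type plasminogen activator, was at 0.0488, 0.154, 0.356 and 0.478 CPM with ANIT and 0.18 to 0.951 (median 0.482) with MDA, against 1.15, 1.4, 1.48, 7.13, 7.88 and 18.7 with APAP and 3.26, 4.38, 5.36, 6.64 and 7.35 with TAA. All APAP and TAA mice lay above all ANIT and MDA mice, with APAP replicate 8 the highest (difference -4.01 ± 0.54, largest adjusted p = 0.00167). Against vehicle, at 0.0697 to 0.413 (median 0.222) CPM, all APAP and TAA mice were higher. No p is given for this, since no vehicle mouse reached the filter on low counts. Selenbp2 was at 3.85, 8.5, 9.26 and 11.9 CPM with ANIT and 9.88 to 31.1 (median 13.5) with MDA, against 95.6 to 235 (median 167) with APAP and 84.5, 92.4, 103, 190.5 and 310.5 with TAA. The ranges of the pairs were separate (difference -3.76 ± 0.31, largest adjusted p = 2.19e-05), and the vehicle mice reached higher levels, at 163 to 558 (median 342). Selenbp2 fell against vehicle with all 4 compounds, with log2 changes of -5.42 ± 0.43 with ANIT and -4.43 ± 0.31 with MDA, and of -1.13 ± 0.27 with APAP and -1.17 ± 0.33 with TAA (largest adjusted p = 0.00652). The falls with ANIT and MDA were the larger ones.

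Loxl2, which cross-links collagen, was at 1.03, 1.13, 1.16 and 1.18 CPM with ANIT and 0.556 to 1.94 (median 0.978) with MDA, against 4.11 to 10.4 (median 6.76) with APAP and 7.77, 8.75, 9.61, 9.82 and 11.6 with TAA. The highest ANIT or MDA mouse was MDA replicate 7 and the lowest APAP or TAA mouse APAP replicate 1, with no overlap (difference -2.90 ± 0.22, largest adjusted p = 6.45e-05). Angpt2, a ligand that loosens the vessel wall through the receptor TIE2, was at 0.146, 0.513, 0.546 and 0.712 CPM with ANIT, 0.148 to 1.1 (median 0.306) with MDA, 1.19 to 6.55 (median 2.51) with APAP and 4.86, 9.43, 13.4, 17.2 and 18.6 with TAA. No mouse of one pair entered the range of the other, and all TAA mice exceeded 5 of the 6 APAP mice (difference -3.85 ± 0.42, largest adjusted p = 0.00616). Fabp5, a fatty acid carrier, was at 19.3, 21, 65.3, 95.2, 97.2 and 97.5 CPM with APAP and 22.7, 30.6, 34.1, 39.7 and 48.2 with TAA, against 2.97, 3.62, 3.91 and 4.72 with ANIT and 1.56 to 7.54 (median 5.38) with MDA. Here APAP replicates 8 and 11 were the lowest of the APAP group, still above every ANIT and MDA mouse (difference -3.44 ± 0.32, largest adjusted p = 0.000165). Dbn1, the actin-binding protein drebrin, and Etv4, an ETS transcription factor, differed by -3.11 ± 0.35 and -2.78 ± 0.38 without overlap between the pairs.

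Krt5, a keratin of basal epithelia, was at or near 0 with ANIT and vehicle. It was at 0.355, 0.388, 1.04, 1.07, 1.16 and 1.43 CPM with APAP and 1.52, 2.1, 3.58, 4.32 and 7.01 with TAA, against 0, 0, 0 and 0.205 with ANIT, 0 to 0.256 (median 0.0875) with MDA and 0 to 0.0361 (median 0) with vehicle. Mmp3, a matrix metalloproteinase, was at 0.388, 0.853, 1.5, 1.57, 1.59 and 1.95 CPM with APAP and 0.704, 0.706, 0.839, 0.99 and 2.26 with TAA, against 0, 0, 0 and 0.0513 with ANIT, 0.0599 to 0.306 (median 0.146) with MDA and 0 to 0.114 (median 0.0361) with vehicle. Neither gene's pairs overlapped, which the choice of the genes required. So few counts stood behind the ANIT values that a fitted fold depends on the prior count.

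**Figure D3:**
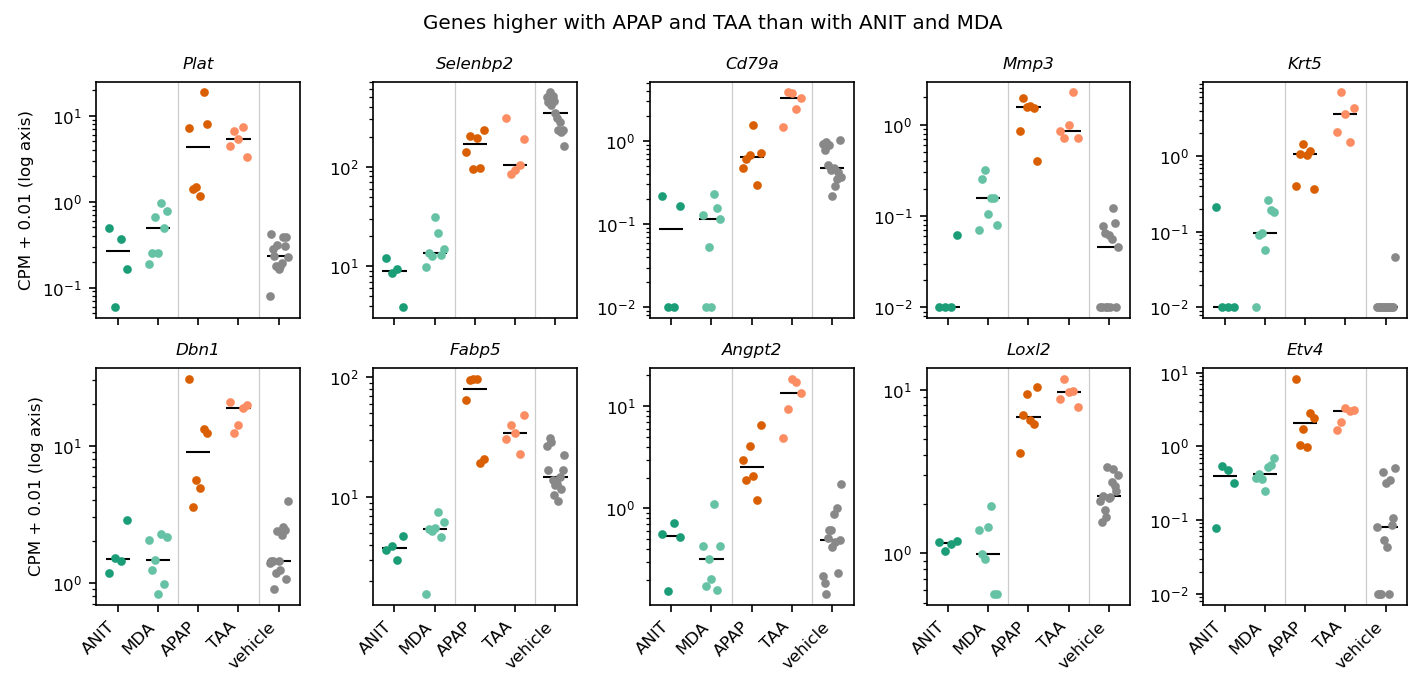
CPM plus 0.01 (log axis) of the 10 genes named for the largest differences in favour of APAP and TAA. Each point is 1 mouse and bars are group medians; in every panel all 11 APAP and TAA mice lie above all 11 ANIT and MDA mice, as the choice of the genes required, and for Selenbp2 the vehicle mice reach higher levels, up to 558 CPM.

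Contractile and matrix genes of stellate cells and fibroblasts were a further group of this direction. Of 14 stellate and fibroblast markers, 6 were concordantly higher with APAP and TAA (Acta2, Tagln, Col1a1, Col1a2, Col3a1 and Lox, the last reaching the filter only through those compounds) and 0 with ANIT and MDA (median difference -1.42). Acta2, smooth muscle actin, was at 0.297, 0.44, 0.683 and 0.975 CPM with ANIT, 0.244 to 1.68 (median 0.82) with MDA, 0.465, 23, 32.5, 35, 61.8 and 92.7 with APAP, 28.1, 41.8, 42.3, 48.4 and 72.1 with TAA and 0.627 to 6.71 (median 3.44) with vehicle. The 0.465 CPM of APAP replicate 1 lay among the ANIT and MDA mice, and the other 10 APAP and TAA mice were all above every one of them. The difference was -5.86 ± 0.61 (largest adjusted p = 0.000449), and the call held in each of the alternatives run for it. Acta2 fell against vehicle with ANIT (-2.38 ± 0.62, adjusted p = 0.00834) and MDA (-1.72 ± 0.46, adjusted p = 0.00657) and rose with APAP (3.73 ± 0.58, adjusted p = 9.18e-05) and TAA (3.90 ± 0.42, adjusted p = 3.37e-07). Tagln, which binds actin in smooth muscle, was at 3.18, 36.9, 45.3, 58.1, 92.1 and 106 CPM with APAP and 64.2, 74.2, 76.2, 78.2 and 105 with TAA, against 1.07, 1.39, 1.77 and 3.03 with ANIT and 1.8 to 4.32 (median 2.81) with MDA. The lowest APAP value was again replicate 1 (difference -4.89 ± 0.44, largest adjusted p = 0.000112). Col3a1, a fibrillar collagen, was at 2.87, 3.32, 3.42 and 3.54 CPM with ANIT and 3.85 to 7.68 (median 5.69) with MDA, against 11.5 to 57 (median 31.9) with APAP and 10.4, 14.1, 15.3, 25.4 and 60.9 with TAA. Again the pairs were apart, and the vehicle mice, at 16.5 to 61.5 (median 28.1) CPM, overlapped APAP and TAA and lay above all ANIT and MDA mice. Col3a1 thus fell with ANIT (-3.22 ± 0.32, adjusted p = 1.81e-06) and MDA (-2.40 ± 0.23, adjusted p = 1.63e-07) and was 0.10 ± 0.31 with APAP and -0.25 ± 0.35 with TAA (adjusted p = 0.84 and 0.594). The summed level of the 14 markers was 74.9 to 183 CPM with ANIT, 46 to 122 CPM with MDA, 225 to 379 CPM with APAP, 249.9 to 535 CPM with TAA and 107 to 214 CPM with vehicle. The part of stellate cell number in these differences was not tested.

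Of 23 genes of actin, tubulin, annexins and S100 proteins, 12 were concordantly higher with APAP and TAA and 0 with ANIT and MDA (median -1.70). The number was 9 without APAP replicates 8 and 11 and 11 with the number range as a covariate. Myl9, a regulatory light chain of smooth muscle myosin, was at 0.77, 0.879, 2.14 and 6.08 CPM with ANIT and 0.765 to 2.22 (median 1.24) with MDA, against 2.71, 11.2, 12.8, 19.2, 40.2 and 41.2 with APAP and 12.2, 15.6, 15.6, 25.1 and 37.5 with TAA. The pairs overlapped through ANIT replicate 1 and APAP replicate 1 (difference -3.55 ± 0.47, largest adjusted p = 0.00619). Vim, the intermediate filament vimentin, had means of 9.25 ± 3.49 and 16.4 ± 8.52 CPM with ANIT and MDA against 62 ± 23 and 81 ± 28.9 with APAP and TAA (difference -2.53 ± 0.28). Anxa2 and S100a6, calcium-dependent membrane and signalling proteins, differed by -2.66 ± 0.43 and -2.55 ± 0.40. The members at the highest level, Actb and Actg1, were not concordant: their differences were -1.0 (SE 0.15) and -0.17 ± 0.29, and Actg1 averaged 448 ± 258 CPM with APAP against 741 ± 606 with ANIT.

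Acta2, Tagln and Myl9 were concordant, and the promoters of the concordant genes were searched for the CArG box, the site of serum response factor, which is known to drive genes of this kind. Promoters of 250 bases before to 50 after each start came from RefSeq on the GRCm38.p6 build, another build than the GRCm39 named for the counts, and both strands were searched. A CArG box stood in a promoter of 9 of 327 genes higher with APAP and TAA (2.75%) and 1 of 218 genes higher with ANIT and MDA (0.459%), beside 163 of 10589 of all genes tested (1.54%). A second motif, TGANTCA, a core of AP-1 sites that cannot overlap a CArG box, was in 11.9% and 13.8% of these promoters, beside 6.84% of all. Both motifs were chosen after the values were seen, and a match is a description of letters, not a bound site. The window of Acta2 held no match, and Tagln was not in the promoter table. The 9 genes were Ampd3, Cnn2, Dusp5, Fhl2, Glipr2, Myadm, Myl6, Myl9 and Rhoj. Of these, 3 contractile or cytoskeletal genes are shown, chosen after their values were seen, with the match in capitals. Myl9 lies at chr2:156775214-156775513 (plus strand, match from 161 bases before the start) and Cnn2, the actin-binding protein calponin 2, at chr10:79988350-79988649 (plus strand, 56 bases before). Fhl2, a LIM-domain cofactor, has a distal start at chr1:43196712-43197011 (minus strand, 96 bases before) and a proximal one at chr1:43163912-43164211 (minus strand, 31 bases before). Each sequence is printed 5′ to 3′ on the strand of its gene.
Myl9: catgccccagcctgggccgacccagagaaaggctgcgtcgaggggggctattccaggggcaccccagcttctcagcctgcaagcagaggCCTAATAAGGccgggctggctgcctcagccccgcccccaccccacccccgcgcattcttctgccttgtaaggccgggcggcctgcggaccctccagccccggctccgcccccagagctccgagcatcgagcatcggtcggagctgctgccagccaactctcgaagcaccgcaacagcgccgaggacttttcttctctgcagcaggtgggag
Cnn2: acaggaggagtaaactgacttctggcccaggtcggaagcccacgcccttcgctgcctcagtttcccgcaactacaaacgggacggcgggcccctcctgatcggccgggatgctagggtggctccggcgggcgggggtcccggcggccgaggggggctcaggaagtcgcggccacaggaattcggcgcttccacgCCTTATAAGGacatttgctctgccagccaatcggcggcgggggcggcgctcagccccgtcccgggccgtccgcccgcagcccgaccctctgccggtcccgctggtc
Fhl2 (distal start): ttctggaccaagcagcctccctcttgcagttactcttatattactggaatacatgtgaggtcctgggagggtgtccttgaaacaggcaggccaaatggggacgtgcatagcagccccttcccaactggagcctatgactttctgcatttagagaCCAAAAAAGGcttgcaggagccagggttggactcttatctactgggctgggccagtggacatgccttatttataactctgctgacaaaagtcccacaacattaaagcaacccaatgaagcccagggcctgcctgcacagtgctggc
Fhl2 (proximal start): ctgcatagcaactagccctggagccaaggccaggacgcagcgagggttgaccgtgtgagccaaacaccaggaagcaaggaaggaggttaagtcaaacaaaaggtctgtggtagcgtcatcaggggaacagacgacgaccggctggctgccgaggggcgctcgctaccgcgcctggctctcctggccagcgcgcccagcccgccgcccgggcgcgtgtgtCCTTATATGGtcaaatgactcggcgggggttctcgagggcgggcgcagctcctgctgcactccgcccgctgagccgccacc
Each of the 4 windows held 1 match. Cnn2 was at 2.21, 2.78, 3.03 and 3.14 CPM with ANIT and 1.19 to 4.97 (median 2.12) with MDA, against 1.94, 9.75, 10.4, 11.4, 18.2 and 24.3 with APAP and 8.33, 11.4, 11.9, 12.1 and 18.5 with TAA, with APAP replicate 1 again the exception (difference -2.33 ± 0.33, largest adjusted p = 0.00672). Fhl2 was at 0.0513 to 0.297 CPM with ANIT, 0 to 0.652 with MDA, 0.233 to 2.62 with APAP and 2.01 to 5.94 with TAA. All TAA mice were above all ANIT and MDA mice, and the lowest APAP mouse, replicate 1, was not.

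A part of the matrix remodelling genes had the same direction. Of 17 genes of matrix remodelling and the plasminogen system, 8 were concordantly higher with APAP and TAA and 0 with ANIT and MDA (median -2.78), and the number was 6 without APAP replicates 1, 8 and 11. Of the 8, Tnc, Mmp3 and Mmp13 reached the filter only through APAP and TAA. Tnc, the wound matrix protein tenascin C, was at 0.0593, 0.103, 0.195 and 0.341 CPM with ANIT, 0.0815 to 0.658 (median 0.222) with MDA, 0.388, 4.07, 6.42, 7.43, 9.36 and 11 with APAP, 7.43, 10.3, 12.1, 12.5 and 13.7 with TAA and 0.236 to 1.19 (median 0.388) with vehicle. APAP replicate 1 was again within the range of MDA, and the other 10 APAP and TAA mice were above all ANIT and MDA mice. Timp1, an inhibitor of metalloproteinases, had means of 1.65 ± 1.22 and 1.56 ± 0.951 CPM against 16.5 ± 11.4 with APAP and 7.47 ± 3.4 with TAA (difference -2.78 ± 0.38). The urokinase Plau and its receptor Plaur differed by -2.32 ± 0.35 and -3.06 ± 0.49. Mmp12, the macrophage metalloelastase, had means of 0.477 ± 0.647, 1.08 ± 0.87, 21.9 ± 20.7 and 15.2 ± 8.06 CPM with ANIT, MDA, APAP and TAA. Mmp13 was at 0 in all ANIT mice and averaged 0.628 ± 0.536 CPM with APAP, too few counts for a fold.

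Of 12 YAP targets, 5 were concordantly higher with APAP and TAA and 0 with ANIT and MDA (median -1.27). The number was 1 without APAP replicates 8 and 11, 3 without APAP replicate 1 and 2 with the number range as a covariate. Ccn1, a matricellular protein, was at 8.42, 8.42, 19.4, 38.3, 60.6 and 112 CPM with APAP and 125, 162, 286, 286 and 319.6 with TAA, against 1.18, 2.73, 4.39 and 6.01 with ANIT and 4.48 to 17.6 (median 11.1) with MDA. APAP overlapped MDA, while every TAA mouse lay above all ANIT, MDA and APAP mice (difference -4.05 ± 0.50, largest adjusted p = 0.0174). Ccn2, connective tissue growth factor, was at 4.57, 13.2, 14, 18.6, 89.2 and 89.5 CPM with APAP and 93.2, 104, 160.2, 206 and 209.8 with TAA, against 7.86 to 12.8 with ANIT and 5.83 to 12 with MDA. The APAP group was split, with replicates 8 and 11 just below the lowest TAA mouse and replicate 1 below every ANIT and MDA mouse (difference -3.06 ± 0.43, largest adjusted p = 0.0305). The Ccn2 call was lost in 15 alternatives, among them the omission of any 1 ANIT mouse or of APAP replicate 8 or 11.

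Genes of DNA replication were also among those higher with APAP and TAA. Of 21 cell cycle genes tested, 6 were concordantly higher with APAP and TAA (Ccnd1 and Mcm2 to Mcm6) and 0 with ANIT and MDA (median -1.82), and Mki67, Ccnb1 and Bub1 were too low to test. Mcm5, a subunit of the replicative helicase, was at 0.513, 0.635, 0.819 and 0.831 CPM with ANIT and 0.445 to 1.1 (median 0.771) with MDA, against 1.47 to 8.23 (median 4.87) with APAP, 2.52, 2.94, 3.2, 5.22 and 5.23 with TAA and 1.05 to 3.95 (median 1.77) with vehicle. No overlap was seen between the pairs (difference -2.59 ± 0.30, largest adjusted p = 0.00104). Against vehicle Mcm5 fell with ANIT (-1.64 ± 0.35, adjusted p = 0.00201) and MDA (-1.51 ± 0.28, adjusted p = 0.00031) and rose with APAP (1.22 ± 0.32, adjusted p = 0.00577) and TAA (0.82 ± 0.28, adjusted p = 0.0178). Ccnd1, the cyclin of entry into the cycle, had means of 5.15 ± 4.58, 7.65 ± 3.13, 17 ± 4.88 and 28.5 ± 8.08 CPM with ANIT, MDA, APAP and TAA. Its call was lost in 20 alternatives, among them the single omission of ANIT replicate 2, 3 or 4, of APAP replicate 1, 2, 4, 8 or 11 and of MDA replicate 1, 2, 3, 7 or 8. Of 16 p53 targets, Eda2r, which reached the filter only through APAP and TAA, and Phlda3 (difference -2.07 ± 0.33) were higher with APAP and TAA (list median -0.81). Of 14 cytosolic heat shock genes, 2 were (Hspa1a and Hspb1, list median -0.29). Without APAP replicate 1 the heat shock count was 1, and without replicates 1, 8 and 11 the p53 count was 0. The Phlda3 call was lost in 8 alternatives, among them the number range as a covariate and the omission of ANIT replicate 1 or 4. Hspb1, a small heat shock protein, had means of 15.8 ± 5.36, 20.8 ± 10.8, 48.9 ± 31.9 and 156 ± 42 CPM. Hspa1a, the inducible HSP70, was at 0.219, 0.226, 4.38, 6.51, 9.08 and 15.5 CPM with APAP, where replicates 8 and 11 were the lowest, and at 10.7 to 26.9 with TAA. The calls of Hspa1a and Hspb1 were lost in 17 and 19 alternatives, among them the omission of ANIT replicate 2, 3 or 4.

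Markers of blood and endothelial cells differed in part. Of 8 B cell markers tested, 3 (Cd79a, Cd79b and Ighm) were concordantly higher with APAP and TAA (median -2.97), Cd79a and Cd79b reaching the filter only through those compounds, and 1 was with the number range as a covariate. The median includes Cd79a and Cd79b, so its size is a description. The Cd79b call was lost in 28 alternatives, among them DESeq2 size factors and the omission of single mice of each of the 4 compounds. Cd79a, a chain of the B cell receptor, was at 0, 0, 0.154 and 0.205 CPM with ANIT and 0 to 0.22 (median 0.104) with MDA, against 0.282, 0.465, 0.589, 0.666, 0.71 and 1.56 with APAP, 1.44, 2.4, 3.22, 3.78 and 3.82 with TAA and 0.205 to 1 (median 0.466) with vehicle. Both pairs kept apart, as the choice of this gene required. The summed B cell markers were 1.37 to 4.98 CPM with ANIT, where Pax5, Blk and Ms4a1 were at 0 in all mice, 1.01 to 3.86 CPM with MDA, 3.95 to 19.4 CPM with APAP, 15.1 to 32.3 CPM with TAA and 6.16 to 23.4 CPM with vehicle. Of 12 monocyte and macrophage markers, Ccr2 and Lyz2 were higher with APAP and TAA (median -1.60). Their number was 0 with the number range as a covariate, 1 without APAP replicates 8 and 11 and 4 without replicates 1, 8 and 11. The Ccr2 call was lost in 26 alternatives and the Lyz2 call in 10. The summed level of the 12 was 70.9 to 126 CPM with ANIT and 65.7 to 195 CPM with MDA, against 196 to 291 CPM with APAP and 187 to 262 CPM with TAA. Neutrophil markers held 0 concordant genes of 11, and 2 without APAP replicate 1, with a median of -2.26. Their summed level was 166 to 887 CPM with TAA, 13.7 to 267 CPM with APAP, 9.52 to 142 CPM with MDA and 14.7 to 48.5 CPM with ANIT, so that only TAA lay above all mice of ANIT and MDA. Of 14 sinusoidal endothelial markers, Cdh5 and Pecam1, which are junction proteins of all endothelium, were higher with APAP and TAA, while the median of the list was 0.22. The Pecam1 call was lost in 29 alternatives, among them DESeq2 size factors, the number range as a covariate and the omission of single mice of each of the 4 compounds, and the Cdh5 call in 1. Cdh5 was at 15.9, 17.5, 19.9 and 25.6 CPM with ANIT and 10.7 to 21.7 (median 17.8) with MDA, against 28.5 to 90.7 (median 45.9) with APAP and 50.6, 51.5, 64.9, 65.8 and 71.2 with TAA, without overlap (difference -1.59 ± 0.19, largest adjusted p = 0.00356). Kupffer cell markers (10 tested, median -0.36) and T and NK cell markers (8 tested, median -0.92) held 0 concordant genes. How far cell numbers account for these values was not tested.

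Of 19 chemokines, 3 were concordantly higher with APAP and TAA (Ccl7, Cxcl14 and Cx3cl1, the last reaching the filter only through those compounds, median -2.0), and 1 was with the number range as a covariate. The calls of Ccl7 and Cx3cl1 were lost in 19 and 24 alternatives. Cxcl14 had means of 1.03 ± 0.5 and 2.02 ± 1.03 CPM with ANIT and MDA against 6.11 ± 2.09 and 8.91 ± 2.44 with APAP and TAA (difference -2.36 ± 0.29). Ier3 was the 1 concordant gene of 16 AP-1 and immediate early genes (median -1.43), and its call was lost in 17 alternatives, among them the omission of APAP replicate 1. Fos, a subunit of AP-1, averaged 109.6 ± 51 CPM with TAA and 21.9 ± 13.2 with APAP, against 12.3 ± 10.8 with ANIT, and did not pass for APAP (adjusted p = 0.459 for ANIT against APAP). Interferon-stimulated genes (18 tested, median -0.76), chaperones of the endoplasmic reticulum (14, median 0.29), fatty acid oxidation genes (20, median 0.17) and core clock genes (16, median 0.20) held 0 concordant genes. Of 12 metallothionein, iron and zinc genes, Slc30a10, a manganese exporter, was higher with ANIT and MDA (difference 1.44 ± 0.17, list median 0.12). Of 15 male-biased genes that depend on growth hormone, Hsd3b5, which reached the filter only through APAP and TAA, was higher with them (list median -0.01), a call lost in 6 alternatives, among them limma and the single omission of ANIT replicate 2, 3 or 4. It averaged 0.102 ± 0.205 CPM with ANIT and 0.148 ± 0.112 with MDA, against 5.93 ± 7.46 with APAP, 5.15 ± 5.02 with TAA and 85.1 ± 34.3 with vehicle, and the mean of each of the 4 compounds was below that of vehicle. With scaling by library total alone, the medians of the endothelial, hepatocyte, lipid droplet, fatty acid oxidation, clock and metallothionein lists turned negative, while the median over all genes was -0.27.

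**Figure D4:**
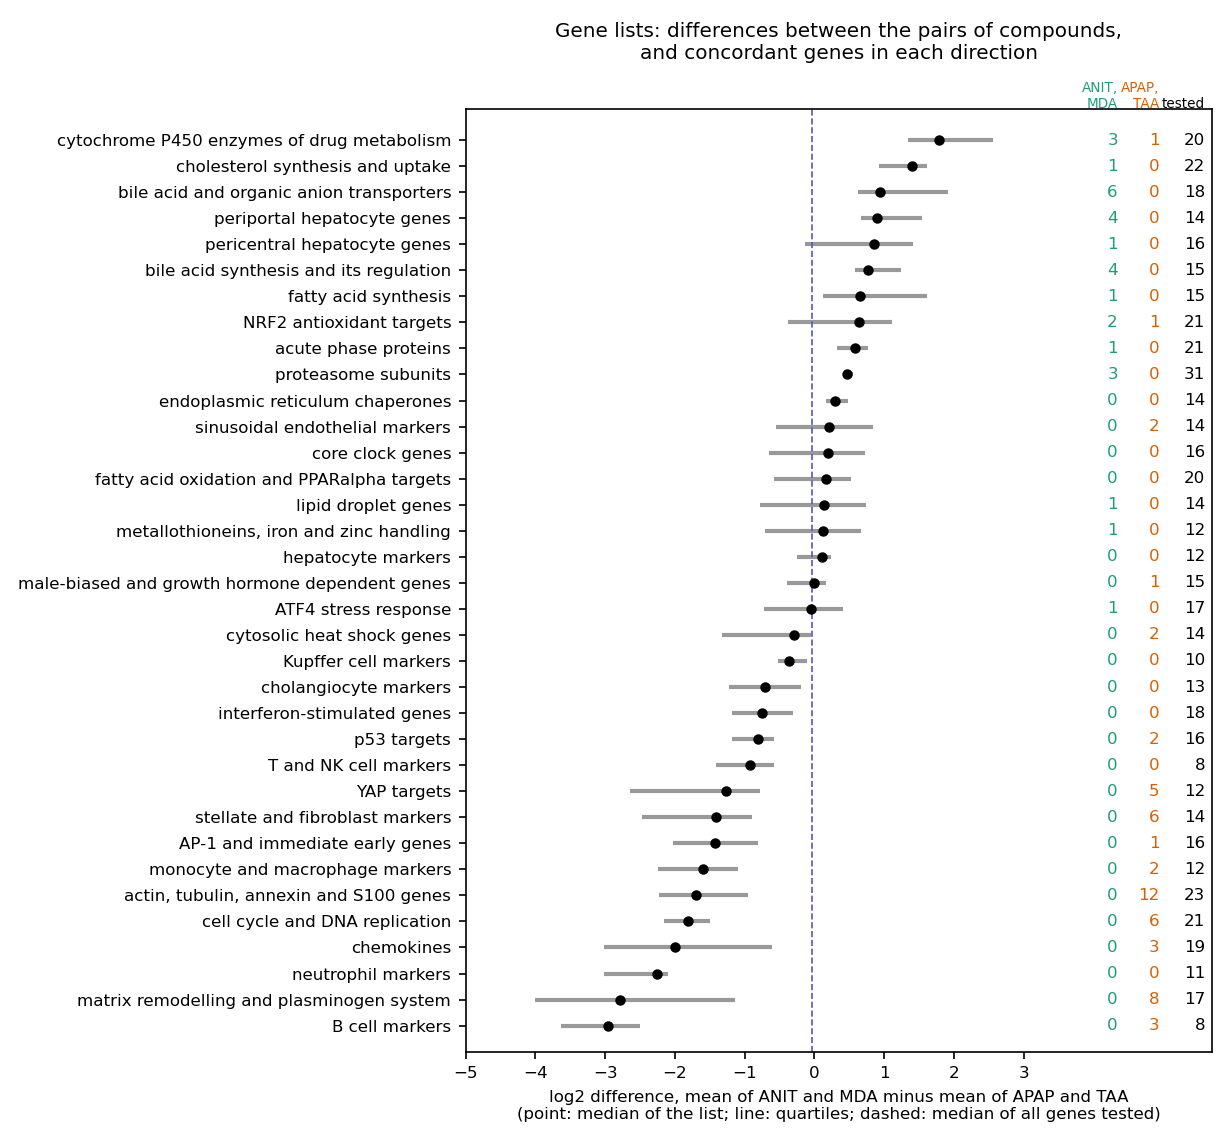
Median (point) and quartiles (line) of the log2 difference, mean of ANIT and MDA minus mean of APAP and TAA, for the 35 gene lists, with the number of concordant genes in each direction and the number tested at the right. The dashed line is the median over all 15280 genes (-0.04), and drug-metabolising P450 genes lie highest at 1.79. B cell markers lie lowest at -2.97, a median that includes Cd79a and Cd79b, which reached the filter on low counts only through APAP and TAA.

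Each compound was then set against the 13 vehicle mice, which the 4 comparisons share. Genes called higher and lower numbered 1969 and 1981 of 14072 with ANIT (14% and 14.1%), 2353 and 2202 of 13522 with MDA (17.4% and 16.3%), 2402 and 2027 of 13939 with APAP (17.2% and 14.5%) and 3781 and 3444 of 14360 with TAA (26.3% and 24%). The genes below were picked because both compounds of one pair lay above vehicle and both of the other below it, so their directions are a description. Cyp2b10 rose by 2.12 ± 0.38 (log2) with ANIT and 3.25 ± 0.21 with MDA, and was -2.50 ± 0.23 with APAP and -2.11 ± 0.26 with TAA. The ANIT rise of Cyp2b10 was 0.87 ± 0.23 without replicate 1 (adjusted p = 0.0106), when the lower 2 of the other 3 ANIT mice lay within the vehicle range. Slco1a4 was 1.01 ± 0.22 with ANIT (0.68 ± 0.22 without replicate 1), 1.25 ± 0.17 with MDA, -1.50 ± 0.23 with APAP and -1.21 ± 0.19 with TAA. Slc37a4, the glucose 6-phosphate carrier of the endoplasmic reticulum, was at 187, 219, 226 and 255 CPM with ANIT, 157 to 276 (median 239) with MDA, 31.6 to 63.1 (median 55.8) with APAP, 47.5, 52.5, 63.8, 70 and 90.3 with TAA and 94.2 to 149 (median 110.4) with vehicle. All ANIT and MDA mice were above all vehicle mice, and all APAP and TAA mice were below them. Vwa3b and Abhd15 had the same directions.

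In the other direction, Fabp5 was -2.21 ± 0.34 with ANIT and -1.77 ± 0.29 with MDA, against 1.92 ± 0.32 with APAP and 1.01 ± 0.26 with TAA. Loxl2 was -1.09 ± 0.22, -1.10 ± 0.24, 1.62 ± 0.18 and 2.01 ± 0.16 with ANIT, MDA, APAP and TAA. Tpm2, a tropomyosin of contractile cells, was at 1.78, 2.12, 2.3 and 2.72 CPM with ANIT and 1.69 to 3.5 (median 2.69) with MDA, against 3.88, 8.94, 11.7, 12, 22.6 and 24.8 with APAP, 7.08, 8.71, 10.6, 12.5 and 18.2 with TAA and 3.56 to 6.69 (median 5.24) with vehicle. All ANIT and MDA mice were below all vehicle mice, and all TAA mice and 5 of 6 APAP mice were above them. Smtn, smoothelin of contractile smooth muscle, was -1.33 ± 0.26, -0.83 ± 0.18, 1.08 ± 0.19 and 1.63 ± 0.20 from vehicle in the same order. Tmsb10, a binder of actin monomers, was -1.37 ± 0.30, -0.84 ± 0.23, 0.83 ± 0.22 and 1.34 ± 0.23.

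**Figure D5:**
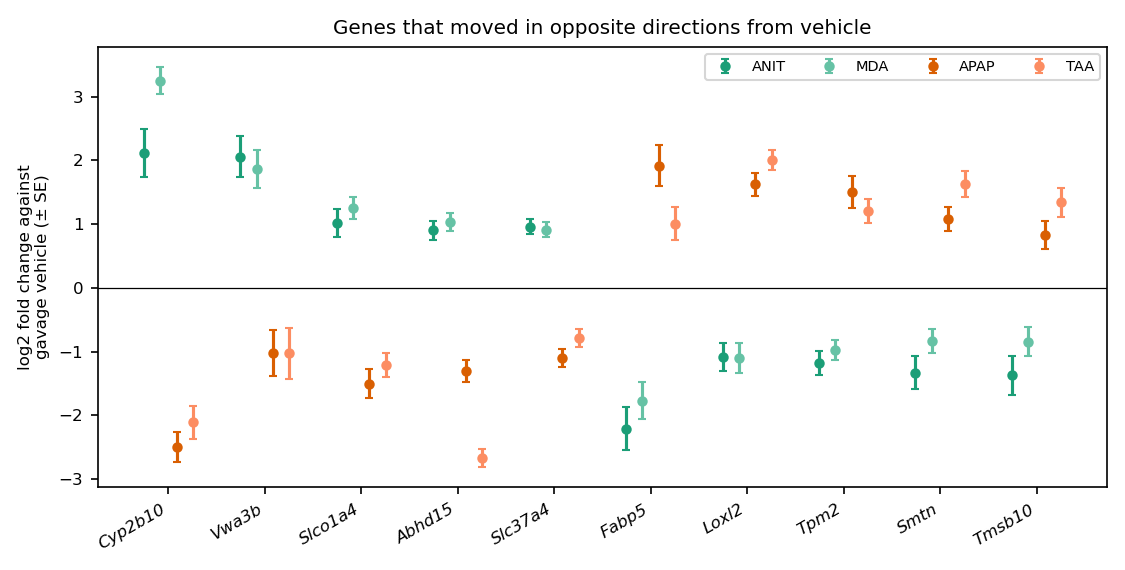
Log2 fold change against the 13 gavage vehicle mice (y axis, points, with SE as bars) of the 10 genes picked for opposite directions, for ANIT, MDA, APAP and TAA. The first 5 genes lie above 0 with ANIT and MDA and below 0 with APAP and TAA, and the other 5 the reverse; Cyp2b10 spans the widest range, from -2.50 to 3.25.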

How the data were processed

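Estimated counts per gene, deposited as 1 table for the series, were used as they stood and rounded to whole numbers for the count models. The submitters' processing notes name Salmon 1.6.0, R 4.1.3 and the GRCm39 build, without role or order. Values of low genes look corrected for transcript length, which no source used here states. Per the labels' protocols, libraries were poly(A)-selected with a stranded kit and read single-end. Symbols came from GENCODE M21, which matched 51482 of 54307 IDs. Table columns that matched no sample of the series numbered 0.

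The 22 mice were fitted together in edgeR 4.0.16 (R 4.3.3) with TMM scaling, filterByExpr and a robust quasi-likelihood test, two-sided, with Benjamini-Hochberg adjustment over 15280 genes. Each compound was also fitted with the vehicle mice alone. SE is the absolute log2 fold change over the root of F. CPM use TMM factors over 35 mice. The code was tested on simulated data. Alternatives used DESeq2 1.42.0, limma 3.58.1, other scalings, filters, covariates and left-out mice, with each of the 22 mice left out in turn. The calls of Pecam1, Cd79b, Ccr2, Psma1, F3, Cx3cl1, Ankrd1, Cyp2a5 and Ccnd1 were lost in most alternatives.

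Named genes are the 10 a direction with the largest smallest difference over the 4 comparisons (no overlap, at least 1 CPM in the higher pair, transcript of at least 500 nt), the 5 a direction opposite against vehicle, up to 4 concordant members of each of 35 lists (the 2 of highest level where there was none), and 10 fixed markers. A few others were named after their values were seen: further members of the lists (Cyp3a11, Slc51b, Nqo1, Hmox1, Actb, Actg1, Fos, Timp1, Plau, Plaur, Abcc2 and Abcg2), those of the closing observations and the genes with a CArG box. Members and lists were chosen with earlier results of these data known. Some results are not reported here.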

Additional observations from a re-analysis of the deposited data

Results flagged for a closer look

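For 34 of the named genes, the 4 compound groups were each searched for a single mouse far from the others (Dixon's 95% criterion on log2 of CPM + 1). Of the 136 combinations of gene and group, 13 had one. Chance alone gives about 1 in 20. Of the 13, 4 were in the libraries labelled ANIT replicate 1 or MDA replicate 1, whose profiles went against their labels. Among genes higher with ANIT and MDA, Cyp2c29 was at 2520 CPM in ANIT replicate 1. Slc10a1 was at 266 CPM in TAA replicate 1. Among genes that did not separate the pairs, Alb was at 61800 CPM in TAA replicate 1, Cyp7a1 at 64.6 CPM in MDA replicate 1 and Sox9 at 35.6 CPM in APAP replicate 1, each above its group.

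Among genes higher with APAP and TAA, Acta2 was at 0.465 CPM in APAP replicate 1, far below the other 5 APAP mice. Fabp5 was at 1.56 CPM in MDA replicate 1 and Angpt2 at 1.10 CPM in MDA replicate 7. Mmp3 was at 2.26 CPM in TAA replicate 7. Mmp3 at 0.0513 CPM in ANIT replicate 4 and Krt5 at 0.205 CPM in ANIT replicate 1 each stood against 0 in the other 3 mice, so that few counts set them apart. Among duct markers, Krt7 was at 0.184 CPM in APAP replicate 2 and Epcam at 4.92 CPM in TAA replicate 6.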

How the results depend on the processing

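No gene concordant in one direction was concordant in the other in any alternative. The 276 genes higher with ANIT and MDA numbered 96 with library totals as scaling, 116 with totals less mitochondrial genes, 461 with vehicle mice in the fit, 125 with each comparison fitted alone, 114 where all 4 differences were 1 or more in size and 170 with the number range as a covariate. They numbered 11 in mice numbered 1 to 4, 2091 by the single contrast of pair means and 99 where the 11 mice did not overlap. The higher-numbered mice hold no ANIT mouse. There 137 genes passed MDA against APAP and MDA against TAA in this direction, 73 of them among the 276. Without single mice the range was 187 (without ANIT replicate 2) to 368 (without TAA replicate 1). The 436 genes higher with APAP and TAA numbered 532 with library totals as scaling and 545 with totals less mitochondrial genes. They numbered 289 without a filter, 258 at a mean of 5 CPM or more, 206 fitted alone, 53 in mice numbered 1 to 4, 2695 by pair means and 106 without overlap. In higher-numbered mice 101 genes passed MDA against APAP and MDA against TAA in this direction, 69 of them among the 436. The range without single mice was 245 (without ANIT replicate 2) to 485 (without APAP replicate 1), with 260 without ANIT replicate 3. The alternatives chosen after seeing the data left out APAP replicates 8 and 11 (172 and 258 genes) or also replicate 1 (249 genes higher with APAP and TAA), or ANIT replicate 1 and MDA replicate 1 (174 and 305 genes).

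ANIT against APAP gave 1123 genes at a mean of 5 CPM, 819 fitted alone, 1119 with the number range, 298 in mice numbered 1 to 4, 1215 without APAP replicates 8 and 11 and 945 to 2712 without single mice (945, 1107 and 1235 without ANIT replicates 2, 3 and 4). ANIT against TAA gave 1949 at 5 CPM, 2071 with the number range, 385 in mice 1 to 4 and 2173 (without ANIT replicate 2) to 4092 without single mice. MDA against APAP gave 1167 at 5 CPM, 1262 fitted alone, 1292 at an absolute log2 fold change of 1, 289 in mice 1 to 4, 381 in higher-numbered mice, 1230 without APAP replicates 8 and 11 and 1477 to 2234 without single mice. MDA against TAA gave 2330, 2298, 425 and 2120 genes at 5 CPM, at an absolute log2 fold change of 1, in mice 1 to 4 and in higher-numbered mice, and 2866 to 4408 without single mice. The cause of these changes was not tested. Library totals as scaling shifted the median log2 difference to -0.46, -0.29, -0.24 and -0.09 in the 4 comparisons. The calls higher and lower were then 252 and 2138, 629 and 2140, 373 and 1398, and 1049 and 1816, against 856 and 1138, 1517 and 1763, 828 and 1152, and 1700 and 1985 with TMM. Against vehicle, scaling by totals gave 818 higher and 2617 lower with ANIT and 2919 and 1115 with APAP.

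With the mouse number as a replicate block, the concordant genes numbered 76 and 103, and the 4 comparisons gave 484, 923, 767 and 2018 genes for ANIT against APAP, ANIT against TAA, MDA against APAP and MDA against TAA. Against vehicle the block gave 1105 genes with ANIT, 2645 with MDA and 258 with APAP, beside 3950, 4555 and 4429 without it. Without ANIT replicate 1 and MDA replicate 1 these comparisons gave 3968 genes with ANIT and 4762 with MDA. Same-numbered mice of different groups did not deviate together (2 of 20 pairs had a correlation over 0.1, median 0.0194), so the number is not taken to pair them. The pair of ANIT 1 and MDA 1 had a correlation of -0.362, beyond the -0.154 to 0.154 of the other pairs. Of the 105 genes of the naming rule, 63 kept their standing with the block and 42 lost the call. Genes at a few counts, such as Krt5 and Mmp3 with ANIT, are limited by depth.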

Other observations

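The following gene families were put together after the values had been seen, so their counts are descriptions. Of 19 nuclear receptors of the liver, 4 were higher with ANIT and MDA, among them Nr0b2 and the drug sensors Nr1i2 (PXR) and Nr1i3 (CAR). Nr1i2 had means of 50.6 ± 15.4 and 60.9 ± 14.1 CPM with ANIT and MDA against 18 ± 4.54 and 18.1 ± 2.11 with APAP and TAA (difference 1.61 ± 0.16). Nr1i3 overlapped, at 67, 95.2, 243 and 259 CPM with ANIT and 71.2 to 395 with MDA, against 37.3 to 98.6 with APAP. TAA was at 53.3 to 59 CPM and vehicle at 64.3 to 134. The highest Nr1i3 value was that of the library labelled MDA replicate 1. The count of receptors was 1 without APAP replicates 8 and 11 and 2 with the number range as a covariate or library totals as scaling. Of 10 theta and mu glutathione transferases, Gstm2, Gstt2 and Gstt3 were higher with ANIT and MDA (median 1.16). The number was 1 with the number range as a covariate, 2 with library totals as scaling and 1 without ANIT replicate 1 and MDA replicate 1. Gstt2 had means of 137 ± 22.6, 116 ± 9.11, 37.9 ± 10.2 and 48.2 ± 16 CPM with ANIT, MDA, APAP and TAA.

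Higher with APAP and TAA were 4 of 25 genes of glucose uptake and glycolysis (Hk1, Pfkfb3, Pkm and Hkdc1, the last reaching the filter on low counts only through those compounds), while the hepatocyte glucose carrier Slc2a2 was higher with ANIT and MDA (list median -0.20). The number was 1 with the number range as a covariate and 2 without ANIT replicate 1 and MDA replicate 1. Pkm, the pyruvate kinase of non-hepatocyte and growing cells, was at 11, 12.3, 21.5 and 27.9 CPM with ANIT and 13.4 to 38 (median 17.8) with MDA, against 59.3 to 117 (median 96) with APAP and 111, 168, 188, 212 and 284 with TAA, without overlap (difference -2.78 ± 0.23, largest adjusted p = 0.0003). Of 23 collagen genes tested, 9 were higher with APAP and TAA (median -1.53). The basement membrane collagen Col4a2 was at 9.38, 9.67, 11.2 and 12.7 CPM with ANIT and 7.9 to 14.4 (median 10.3) with MDA, against 28.7 to 50.5 (median 38.5) with APAP and 37.9, 39.1, 39.1, 41.3 and 47.7 with TAA, again without overlap (difference -1.90 ± 0.12, largest adjusted p = 4.39e-06). Of 17 MAP kinase phosphatase, Sprouty and Spred genes, which damp growth factor signalling, 7 were higher with APAP and TAA (median -1.77), 2 were without APAP replicate 1 and 4 without ANIT replicate 1 and MDA replicate 1. Of the 7, Dusp2 and Spred3 reached the filter only through APAP and TAA. Dusp5 was at 38.6 CPM in that mouse and at 2.76 to 15.3 in the other APAP mice, against 36.6 to 50.9 with TAA. Of 10 MHC class II genes, 5 were higher with APAP and TAA (median -1.17), H2-DMb2 among them reaching the filter only through those compounds, and 1 with the number range as a covariate or without ANIT replicate 1 and MDA replicate 1. H2-Aa averaged 15.4 ± 3.6, 16.8 ± 5.08, 34.1 ± 14.4 and 36.8 ± 14.1 CPM with ANIT, MDA, APAP and TAA and 38.8 ± 9.26 with vehicle.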
